A study of Homo sapiens with 12 samples.

Results

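The BCL2 family genes described here are 10 of the 16383 genes in the deposited table, chosen by symbol. They comprise 5 pro-survival genes (BCL2, BCL2L1, BCL2L2, MCL1 and BCL2A1), 2 effectors (BAX and BAK1) and 3 BH3-only genes (BBC3, PMAIP1 and BCL2L11). Their RNA was measured by poly(A) RNA sequencing in wild-type IMR90 fibroblasts, a human lung line, in 4 groups of 3 libraries. Proliferating cells were untreated. The other 3 groups, which the labels call senescent, received 20 Gy of ionizing radiation over 10 min and were collected on day 11. They were given DMSO, 2 µM palbociclib (which inhibits the cell cycle kinases CDK4 and CDK6) or 2 µM ruxolitinib (which inhibits the Janus kinases JAK1 and JAK2), with the inhibitors added on days 4, 6, 8 and 10. The labels give no vehicle and no collection day for the proliferating cells, so radiation, DMSO and time in culture cannot be told apart in comparisons with them. All groups come from a single cell line, and no label says that the libraries came from separate cultures, so p-values measure only the spread between these libraries, which may be technical.

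Proteins of the BCL2 family decide whether the outer mitochondrial membrane stays closed during apoptosis. Pro-survival members hold the effectors BAX and BAK in check, BH3-only proteins bind the pro-survival members or the effectors, and freed effectors form the pores through which cytochrome c reaches the cytosol. Senescent fibroblasts are known to resist apoptosis, and senolytic drugs such as navitoclax bind some of the pro-survival proteins.

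The listed genes held 14106799 to 21762412 reads per library. No replicate pair differed by as little as counting noise. Library A126 of the proliferating cells and library A120 of the palbociclib group stood apart from their own replicates: per gene, chi-square values were 12.02 and 18.04 for pairs with A126 against 3.40 for the pair without it, and 25.2 and 13.6 for pairs with A120 against 6.47 without it. The irradiation and ruxolitinib labels held in the marker genes below, and no check of the palbociclib label is given. CDKN1A, which encodes the cell cycle inhibitor p21, was at 3165 to 3523 normalized counts in proliferating libraries and at 14000 to 33259 in irradiated ones. The interferon-stimulated gene MX1 was at 2428 to 2507 with DMSO and at 21.6 to 29.7 with ruxolitinib. With palbociclib MX1 was at 90.7 to 185.0, so a level below DMSO was not particular to ruxolitinib, although the ruxolitinib libraries were the lowest irradiated ones. All 11 fibroblast markers were present. Their summed level was 846655 to 871577 in proliferating, 426203 to 436533 in DMSO, 678395 to 701085 in palbociclib and 534578 to 538508 in ruxolitinib libraries. That sum came mostly from COL1A1, COL1A2 and VIM, and not every marker followed it. COL1A1 was at 391817 to 414584 in proliferating and 163418 to 167463 in DMSO libraries, but THY1 was at 8552 to 9050 and 9575 to 10271. PDGFRA was at 4056 to 4170 with DMSO and at 2937 to 3681 with palbociclib. The part of these levels in the results below was not tested. Of 7 epithelial markers 5 had at most 3 reads in every library, and the endothelial, blood and smooth muscle markers PECAM1, CDH5, PTPRC, CD3E and MYH11 did not exceed 15.3 normalized counts. Other markers of these lists were higher. EPCAM reached 35.5 and DES 106.9 in proliferating libraries, VWF 35.1 and ITGAM 19.8 with ruxolitinib, CD14 29.7 with DMSO and CDH1 18.8 with palbociclib. The sums of the endothelial, blood and smooth muscle lists came mostly from TEK, CD68 and CNN1. The endothelial sum was 3501 to 4380 with palbociclib against 2389 to 2554 with DMSO, the blood sum 701.6 to 807.4 against 1234 to 1316 and the smooth muscle sum 3953 to 4381 against 2019 to 2213, and their part in the palbociclib results was not tested. In RNA from whole cultures, fewer cells with a transcript and less transcript per cell cannot be told apart.

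The members lie on 8 chromosomes of the hg38 build (GENCODE gene coordinates). BCL2 spans chr18:63123346-63320128 on the minus strand, BCL2L1 chr20:31664452-31723989 on the minus strand, BCL2L2 chr14:23298790-23311751 on the plus strand, MCL1 chr1:150560895-150579738 on the minus strand and BCL2A1 chr15:79960892-79971196 on the minus strand. The effectors BAX and BAK1 span chr19:48954815-48961798 on the plus strand and chr6:33572547-33580293 on the minus strand. BBC3 spans chr19:47220822-47232766 on the minus strand, PMAIP1 chr18:59899996-59904305 on the plus strand and BCL2L11 chr2:111119378-111168444 on the plus strand. Values were counted per gene, so splice forms with opposite activity, such as the long and short forms of BCL2L1 or MCL1, could not be separated. The strand setting of the counting is not given in the sources used here. The antisense RNA ABALON overlaps 36.7% of the BCL2L1 transcript and the opposite-strand MIR4435-2HG overlaps 14.3% of the BCL2L11 transcript. The read-through gene BCL2L2-PABPN1 shares 16.7% of the BCL2L2 transcript on the same strand, and 14.9% of the 50-base words of BAK1 occur in other genes, most often its pseudogene BAK1P1. BCL2A1 also shared 6.57% of its 50-base words with other genes, most often ST20. These shares do not bound how many counted reads belong to the other genes, and that number was not measured.

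Promoter sequence was read for the members as a description only. RefSeq (GRCh38.p14) gave 250 bases upstream of the start for 8 of the 10 members, with no entry for BCL2L2 and MCL1. Those without any annotated exon in the window are printed below: 2 BH3-only genes that rose after irradiation and were lower with palbociclib, and BCL2A1, the member nearest to the detection limit. Capitals mark a match to a FOXO, STAT or E2F motif, each searched on both strands, and the motifs were chosen with the values already known. BCL2L11 is at chr2:111120664-111120913 (plus strand), PMAIP1 at chr18:59899746-59899995 (plus strand) and BCL2A1 at chr15:79971197-79971446 (minus strand).
BCL2L11: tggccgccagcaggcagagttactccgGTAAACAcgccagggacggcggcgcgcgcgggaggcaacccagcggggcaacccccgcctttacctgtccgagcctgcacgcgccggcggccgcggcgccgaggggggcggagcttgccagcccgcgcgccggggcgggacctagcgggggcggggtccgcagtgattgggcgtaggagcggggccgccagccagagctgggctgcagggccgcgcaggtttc
PMAIP1: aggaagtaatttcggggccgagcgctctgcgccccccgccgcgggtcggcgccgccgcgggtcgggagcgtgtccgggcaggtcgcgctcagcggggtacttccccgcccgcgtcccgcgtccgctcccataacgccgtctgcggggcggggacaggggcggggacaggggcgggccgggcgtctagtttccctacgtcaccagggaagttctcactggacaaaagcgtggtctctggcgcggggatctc
BCL2A1: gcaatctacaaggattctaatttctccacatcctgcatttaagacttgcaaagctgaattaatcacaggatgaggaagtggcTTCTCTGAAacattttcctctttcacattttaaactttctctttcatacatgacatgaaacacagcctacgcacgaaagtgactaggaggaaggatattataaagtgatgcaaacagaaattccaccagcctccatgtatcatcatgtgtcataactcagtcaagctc
The RefSeq start of BCL2L11 lies inside the longer GENCODE gene span given above, and distances are counted from the RefSeq start. The capitals in BCL2L11 are the FOXO core GTAAACA, whose first base lies 223 bases upstream, a motif found in 2.98% of 35116 promoters of the same length. Those in BCL2A1 are a STAT site, TTCNNNGAA, 168 bases upstream, found in 6.57%. PMAIP1 held none of these motifs. Among the other promoters, BCL2L1 held the E2F core TTTNNCGC 111 bases upstream (5.92% of promoters). A match describes these letters only and is no evidence of binding. GC content was 76.8% in the BCL2L11 window, 72.8% in PMAIP1 and 38.8% in BCL2A1.

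Levels below are normalized counts as deposited, and differences are log2 fold changes of (normalized count + 1) from limma, with a gene called at a Benjamini-Hochberg adjusted p under 0.05 over 11242 genes. Among the pro-survival genes, BCL2 itself was the member that differed most between groups. BCL2 was at 189.9, 137.5 and 187.6 in proliferating libraries, at 23.8, 50.9 and 26.6 with DMSO, at 16.6, 14.2 and 18.7 with palbociclib and at 23.1, 23.4 and 31.6 with ruxolitinib. Every irradiated library was below every proliferating one, and every palbociclib library was below every DMSO and ruxolitinib one. In DMSO cells BCL2 fell by 2.38 on the log2 scale (SE 0.26, adjusted p 6.43e-07), from 171.7 ± 29.6 to 33.8 ± 14.9 (SD, n = 3). With palbociclib it was lower still, at 16.5 ± 2.21 (log2 fold change -0.92 against DMSO, SE 0.26, adjusted p 0.00912). That second difference leaned on library A117, the DMSO library at 50.9: without it the log2 fold change was -0.59 (adjusted p 0.0525), and after quantile normalization it was -0.38 (adjusted p 0.276). With ruxolitinib the level was 26.1 ± 4.80 and the groups overlapped (-0.30, 95% interval -0.85 to 0.26).

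BCL2L1, which encodes BCL-xL, and BCL2L2, which encodes BCL-w, ran the other way. BCL2L1 was at 1873, 2036 and 1917 in proliferating libraries, at 3525, 3731 and 3709 with DMSO, at 3013, 3425 and 3193 with palbociclib and at 3562, 3424 and 3584 with ruxolitinib. It rose by 0.91 in DMSO against proliferating cells (SE 0.055, adjusted p 5.73e-10), which is 1.88-fold. All 9 irradiated libraries were above all proliferating ones. With palbociclib BCL2L1 was slightly below DMSO without overlap (-0.19, SE 0.055, adjusted p 0.0106), and with ruxolitinib it overlapped DMSO (-0.05, 95% interval -0.17 to 0.06).

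BCL2L2 was at 1013, 1062 and 1030 in proliferating libraries, at 2116, 1804 and 2121 with DMSO, at 1944, 2046 and 1949 with palbociclib and at 1787, 1731 and 1841 with ruxolitinib. The irradiated groups lay close together and well above the proliferating one. BCL2L2 rose by 0.96 in DMSO cells (SE 0.062, adjusted p 1.54e-09), a 1.94-fold difference. It was within the spread of DMSO with palbociclib (-0.02, 95% interval -0.15 to 0.11), except that scaling every library to the same total made it a called decrease of -0.25. With ruxolitinib the difference of -0.17 did not pass (95% interval -0.30 to -0.04, adjusted p 0.172), but it passed without library A117 (-0.25, adjusted p 0.0324).

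MCL1, which encodes a short-lived protein that NOXA binds, varied little. It was at 6775, 6631 and 6433 in proliferating libraries, at 7259, 6905 and 7087 with DMSO, at 6043, 5882 and 5586 with palbociclib and at 6075, 6355 and 6283 with ruxolitinib. All DMSO libraries were above all others, but the difference from proliferating cells was small and was not called (0.10, adjusted p 0.0656). It was called higher at the same total (0.33), at the same upper quartile (0.26), after quantile normalization, with edgeR and DESeq2 (0.16 each), and without A120 and A126 (0.10, adjusted p 0.0399). With palbociclib MCL1 was lower than with DMSO by 0.28 (adjusted p 1.61e-04; log2 fold change -0.28, SE 0.046). With ruxolitinib it was also lower (-0.18, SE 0.046, adjusted p 0.0332), but leaving out any single DMSO or ruxolitinib library took the adjusted p to between 0.0683 and 0.168, and it was 0.0565 at the same upper quartile and 0.0734 without a variance trend.

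BCL2A1, a family member known as an NF-kappaB target in blood cells, was close to the detection limit. It was at 6.23, 5.55 and 3.81 in proliferating libraries, at 14.8, 7.10 and 26.6 with DMSO, at 2.21, 0 and 5.33 with palbociclib and at 12.3, 9.0 and 4.51 with ruxolitinib. These values rest on 15, 44, 8 and 31 reads in all per group. DMSO libraries were all above proliferating and palbociclib ones and overlapped those with ruxolitinib. The mean was under the minimum of 10 for testing. Fitted with no minimum, it gave a log2 fold change of -2.48 for palbociclib against DMSO (SE 0.60, adjusted p 0.00458) and of 1.32 for DMSO against proliferating cells (adjusted p 0.0708).

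**Figure D1:**
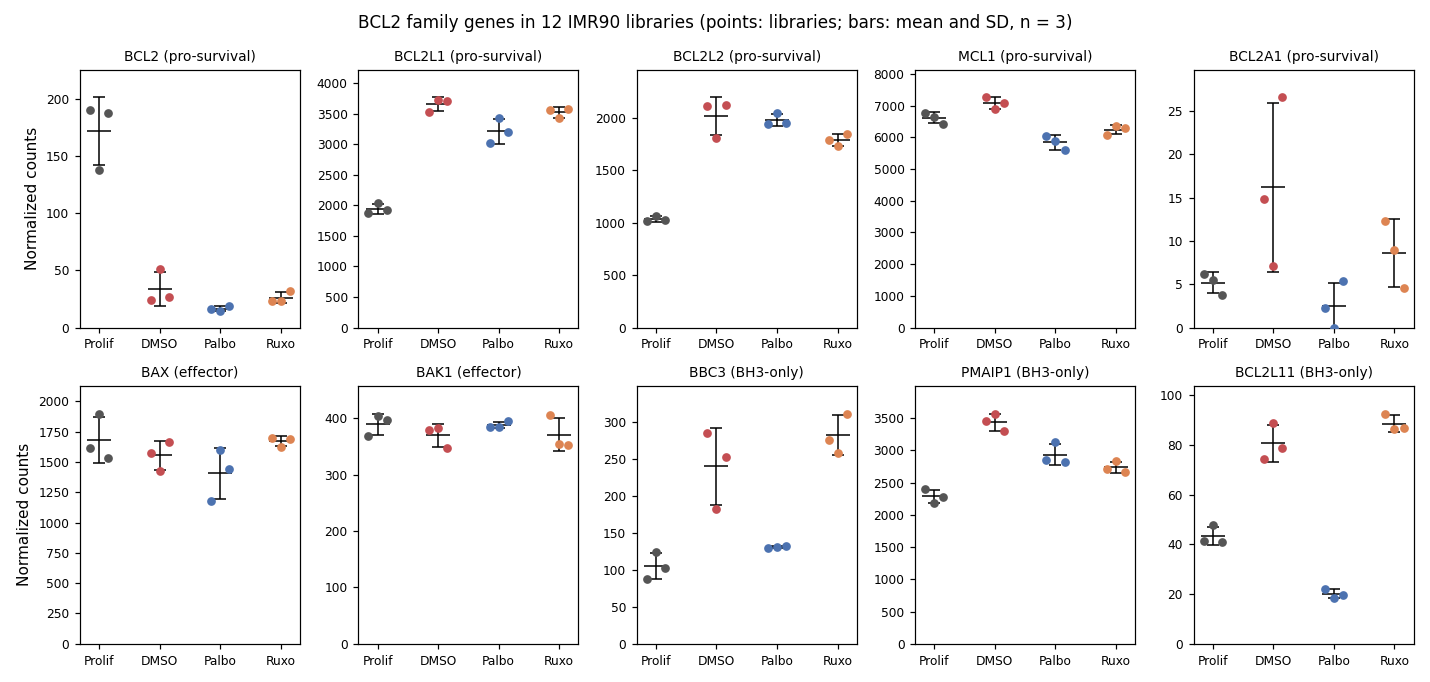
Normalized counts of the 10 genes in each library (points) with the group mean and SD (bars, n = 3), by group. BCL2 is high in proliferating cells (137.5 to 189.9), BCL2L1, BCL2L2, BBC3 and PMAIP1 are high in all or most irradiated groups, and BCL2L11 is lowest with palbociclib (18.6 to 22.1).

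The effectors BAX and BAK1, whose proteins form the mitochondrial pores, showed no called difference between DMSO and proliferating cells or between either inhibitor and DMSO. BAX was at 1618, 1899 and 1530 in proliferating libraries, at 1574, 1429 and 1664 with DMSO, at 1177, 1596 and 1443 with palbociclib and at 1695, 1621 and 1690 with ruxolitinib. These ranges overlapped except for palbociclib and ruxolitinib. BAX differed by -0.11 between DMSO and proliferating cells (95% interval -0.32 to 0.10, adjusted p 0.33), so a change of the size seen in BCL2L1 lies outside the interval. For palbociclib against DMSO it differed by -0.16 (95% interval -0.37 to 0.06). Without library A120, the palbociclib library at 1596, that difference was -0.25 (adjusted p 0.0373), and at the same total it was -0.38 (adjusted p 0.0062).

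BAK1 was the steadiest member. It was at 368.4, 403.7 and 397.1 in proliferating libraries, at 380.1, 383.6 and 346.9 with DMSO, at 385.1, 384.2 and 394.4 with palbociclib and at 405.1, 354.8 and 352.8 with ruxolitinib. The 4 group means spanned 0.07 on the log2 scale. The differences were -0.07 for DMSO against proliferating cells (95% interval -0.24 to 0.09), 0.07 for palbociclib against DMSO (95% interval -0.10 to 0.23) and 0.00 for ruxolitinib against DMSO (95% interval -0.16 to 0.17).

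All 3 BH3-only members rose after irradiation and were lower with palbociclib than with DMSO, a pattern that other BH3-only genes below did not all share. BBC3, which encodes PUMA, was at 88.2, 124.2 and 102.8 in proliferating libraries, at 285.1, 182.3 and 252.1 with DMSO, at 129.5, 130.3 and 132.4 with palbociclib and at 276.2, 258.4 and 311.3 with ruxolitinib. The palbociclib libraries sat just above the proliferating ones and below all DMSO and ruxolitinib ones. BBC3 rose by 1.17 in DMSO cells (SE 0.15, adjusted p 4.52e-06), or 2.25-fold. It was lower by 0.85 with palbociclib (log2 fold change -0.85, SE 0.15, adjusted p 3.38e-04), and the ruxolitinib value did not pass (0.25, 95% interval -0.07 to 0.58).

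PMAIP1 encodes NOXA, which binds MCL1. It was at 2395, 2185 and 2281 in proliferating libraries, at 3452, 3563 and 3301 with DMSO, at 2852, 3131 and 2824 with palbociclib and at 2703, 2835 and 2671 with ruxolitinib. Both inhibitor groups lay between the proliferating and the DMSO libraries, without overlap with either. PMAIP1 rose by 0.59 in DMSO cells (SE 0.056, adjusted p 1.17e-07). It was lower than DMSO with palbociclib (-0.23, adjusted p 0.00333) and with ruxolitinib (-0.33, adjusted p 0.00197), the member with the smallest adjusted p in the ruxolitinib comparison. Palbociclib and ruxolitinib libraries overlapped (0.10, 95% interval -0.02 to 0.22).

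BCL2L11 encodes BIM, which binds all the main pro-survival proteins and is a known FOXO target. It was at 41.5, 47.7 and 40.9 in proliferating libraries, at 74.2, 88.8 and 78.6 with DMSO, at 22.1, 18.6 and 19.5 with palbociclib and at 92.6, 86.4 and 86.6 with ruxolitinib. All palbociclib libraries were below the proliferating ones, and all DMSO and ruxolitinib libraries were above them. BCL2L11 rose by 0.88 in DMSO cells (SE 0.15, adjusted p 9.57e-05), from 43.4 ± 3.74 to 80.6 ± 7.46 (SD, n = 3). With palbociclib it was at 20.1 ± 1.83, a log2 fold change of -1.95 against DMSO (SE 0.15, adjusted p 8.01e-08), or 3.87-fold lower. With ruxolitinib it was at 88.6 ± 3.50 and did not differ beyond the spread (0.14, 95% interval -0.19 to 0.47). Its promoter printed above holds a FOXO core, but binding was not measured and a part of FOXO factors in these values was not tested.

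**Figure D2:**
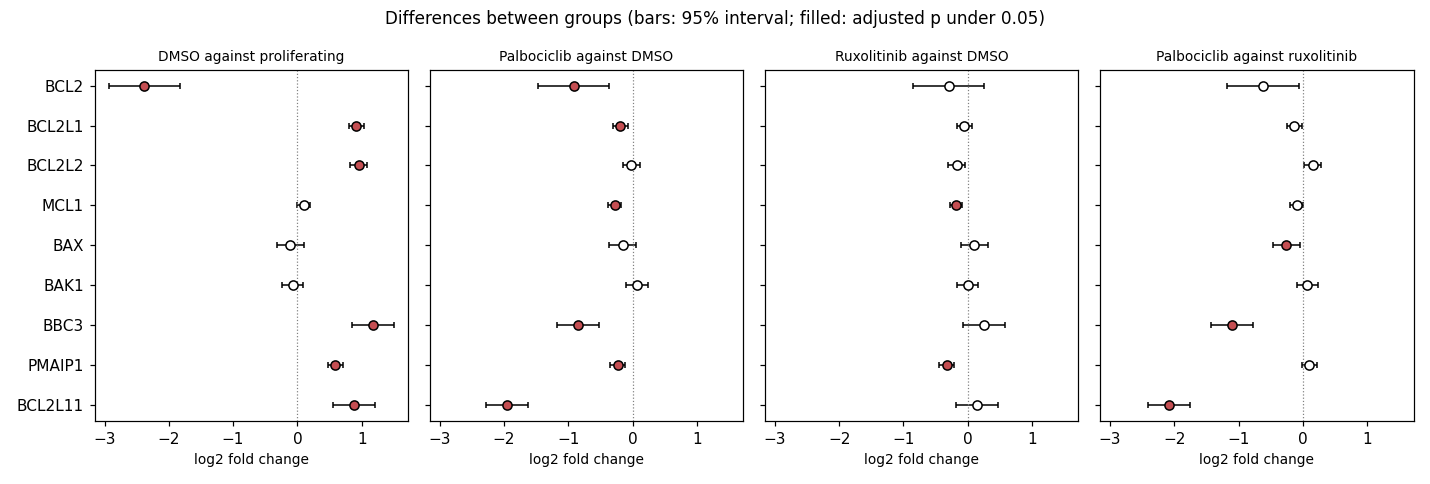
Log2 fold change of the 9 tested members in 4 comparisons, with 95% intervals from limma; filled points were called at an adjusted p under 0.05. BCL2 stands at -2.38 and BBC3 at 1.17 in DMSO against proliferating cells, and BCL2L11 at -1.95 in palbociclib against DMSO.

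The comparison of DMSO with proliferating cells asked how the family stands after irradiation. Of the 9 tested members, 5 were called higher and 1, BCL2, lower. Over all tested genes 72.4% were called, 33.0% higher and 39.3% lower, so 6 of 9 called members is near the share of genes at large. By role, 2 of 4 tested pro-survival members and 3 of 3 BH3-only members rose. The members' median log2 fold change was 0.59, against -0.05 over all genes. Another scaling moves these comparisons: the same total would raise the median gene by 0.23 in DMSO against proliferating cells and shift it by -0.23 in palbociclib against DMSO. Without libraries A120 and A126, a choice made after seeing the data, 6 members were higher and 1 lower. For this and all other alternative fits the share of all genes called is not given, so their counts of members stand alone.

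Palbociclib against DMSO asked what inhibition of CDK4 and CDK6 changes in irradiated cells. Of the 9 tested members 6 were lower: BCL2, BCL2L1, MCL1, BBC3, PMAIP1 and BCL2L11. None was called higher by limma, edgeR or DESeq2, and 0 were higher at an unadjusted p under 0.05. Over all genes 48.3% were called, 26.0% higher and 22.3% lower. The median member stood at -0.23 and the median gene at 0.02. Of the 9 tested members BCL2L11 alone was lower by at least 1 on the log2 scale, as were 5.39% of all tested genes. Without A120 and A126, 7 members were lower, BAX being the addition (-0.25, adjusted p 0.00456), with no share over all genes given for that fit.

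Ruxolitinib against DMSO asked what inhibition of the Janus kinases changes, and it shares its DMSO libraries with the palbociclib comparison. MCL1 and PMAIP1 were lower, 2 of 9, and 0 were higher by limma, by edgeR, by DESeq2 or at an unadjusted p under 0.05. Over all genes 4.52% were called, 1.1% higher and 3.42% lower. The median member differed by -0.05. Without A120 and A126, 3 members were lower.

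Set directly against each other, the inhibitors differed most in BCL2L11 and BBC3 among the 9 tested members. BCL2L11 was lower with palbociclib than with ruxolitinib (-2.09, SE 0.15, adjusted p 5.37e-08), as was BBC3 (-1.10, SE 0.15, adjusted p 4.14e-05). BAX was lower too (-0.26, adjusted p 0.0489), a call lost in 13 of 24 alternatives and smallest without library A119 (-0.14, adjusted p 0.212). These 3 of 9 members were lower, where 40.4% of all genes were called, 22.8% higher and 17.6% lower. No member was higher by limma, edgeR or DESeq2, and 1, BCL2L2, was at an unadjusted p under 0.05 (0.15, 95% interval 0.02 to 0.28, adjusted p 0.0697). BCL2 (-0.62, adjusted p 0.0685), BCL2L1 (-0.14, adjusted p 0.0606) and MCL1 (-0.10, adjusted p 0.111) did not pass. With edgeR and with DESeq2 BCL2L1 and MCL1 did pass, which gave 5 lower members.

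Against proliferating cells, the palbociclib group kept part of the irradiated pattern. BCL2L1 (0.72), BCL2L2 (0.94) and PMAIP1 (0.36) were higher, and BCL2 (-3.30), BCL2L11 (-1.07), BAX (-0.26) and MCL1 (-0.18) were lower, 3 and 4 of 9. Over all genes 73.8% were called, 35.2% higher and 38.6% lower. BBC3 did not pass (0.33, adjusted p 0.0657) although its groups did not overlap, and it passed without library A126 (0.45, adjusted p 0.0154) or without A117, which enters through the shared spread. BAX overlapped proliferating libraries, and its call was lost in 8 of 24 alternatives. These include the fits without A126 (-0.17, adjusted p 0.118), without A119 (-0.14, adjusted p 0.144), with edgeR (adjusted p 0.0572) and with DESeq2 (adjusted p 0.0505), and both count tools gave 3 lower members. MCL1 was not called at the same upper quartile (-0.05, adjusted p 0.326). Without A120 and A126, 4 members were higher and 4 lower.

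In ruxolitinib against proliferating cells the calls were those of DMSO: BCL2L1 (0.86), BCL2L2 (0.79), PMAIP1 (0.26), BBC3 (1.43) and BCL2L11 (1.02) were higher and BCL2 (-2.67) was lower, 5 and 1 of 9. Over all genes 72.2% were called, 32.6% higher and 39.5% lower. The 3 comparisons with proliferating cells share those libraries.

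Levels of different members can be set side by side only per length of transcript. Counts covered all forms of a gene, but the length is that of 1 reference transcript, 795 bases for BAX and 3950 for MCL1. Another choice of transcript could change the order. Before scaling, MCL1 (6613) was above BAX (1682) in proliferating cells. Per kilobase of the reference transcript, BAX had the highest mean in every group, at 2116 normalized counts per kb in proliferating, 1957 in DMSO, 1768 in palbociclib and 2099 in ruxolitinib libraries. In proliferating cells the order was BAX, MCL1 (1674), PMAIP1 (1204), BCL2L1 (754.5), BCL2L2 (293.5), BAK1 (179.6), BBC3 (56.9), BCL2 (25.0), BCL2L11 (8.51) and BCL2A1 (6.66). With DMSO, BAX, PMAIP1 (1811) and MCL1 (1793) overlapped, followed by BCL2L1 (1420), BCL2L2 (571.1), BAK1 (170.6) and BBC3 (129.9). BCL2A1 (20.8) overlapped BCL2L11 (15.8), and BCL2 came last (4.91). BCL2 had the lowest mean per kb in all 3 irradiated groups, at 2.40 with palbociclib, where it overlapped BCL2A1 (3.22), and 3.79 with ruxolitinib. With palbociclib BAX also overlapped PMAIP1 (1546) and MCL1 (1478). BCL2L1 exceeded BCL2 in every library on this scale. With ruxolitinib BBC3 (152.7) overlapped BAK1 (170.9).

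**Figure D3:**
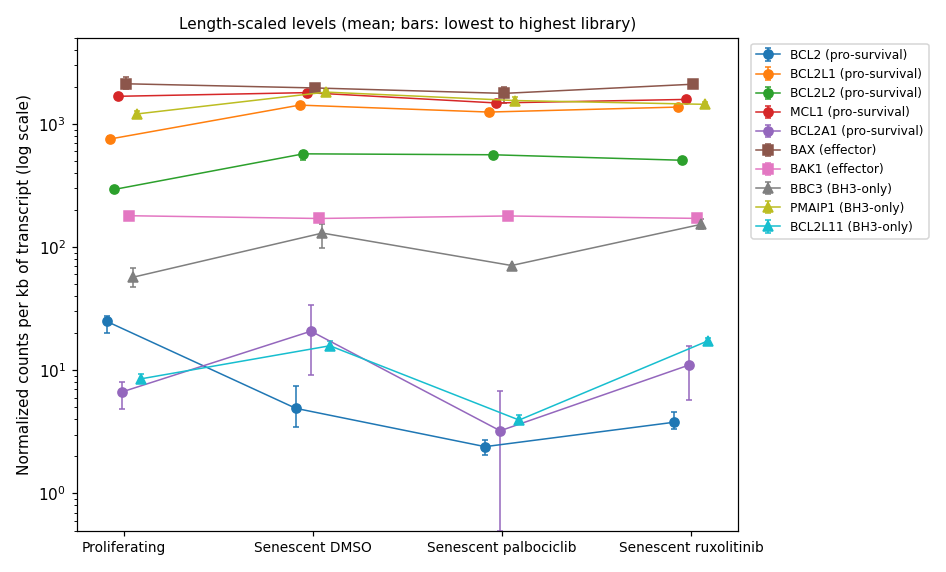
Normalized counts per kb of transcript (log axis) for the 10 members by group; symbols are means and bars run from the lowest to the highest library. The bar of BCL2A1 with palbociclib reaches a library at 0 and is drawn to the end of the axis. BCL2 drops from 25.0 in proliferating cells to 4.91 with DMSO, while BAK1 stays between 170.6 and 179.6.

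The rest of the family moved in both directions. Of 13 further BCL2 family genes 12 were in the table and 8 were tested. In DMSO against proliferating cells 4 were higher and 3 lower, with BID, which links caspase-8 to the mitochondrial route, at 0.66, BCL2L13 at 0.65, BCL2L12 at -1.65 and BOK at -0.43. In palbociclib against DMSO 4 were higher and 2 lower. These are 87.5% and 75.0% of the list, where 72.4% and 48.3% of all tested genes were called. BMF, another BH3-only gene, was at 298.7 ± 25.6 in proliferating, 273.6 ± 22.9 in DMSO, 76.6 ± 5.76 in palbociclib and 266.6 ± 5.91 in ruxolitinib libraries (SD, n = 3). BMF with palbociclib was lower than with DMSO (-1.82, SE 0.098, adjusted p 1.13e-09) and than with ruxolitinib (-1.79), and BCL2L12 was at -0.34 against DMSO (adjusted p 0.024). The BCL2L12 call was lost after quantile normalization (-0.13, adjusted p 0.395), in a fit of only the 2 groups (adjusted p 0.0647) and without A118 (adjusted p 0.123) or A119 (adjusted p 0.0987). BNIP3 (0.39) and BOK (0.37) were higher with palbociclib, but BOK was not called at the same total. BID, also a BH3-only gene, was higher with palbociclib than with DMSO too (0.225, adjusted p 0.0163). BMF showed no called difference between DMSO and proliferating cells (-0.13, adjusted p 0.26). The pattern of the BH3-only members was thus not shared by every BH3-only gene. With ruxolitinib 0 of 8 were called by limma, by edgeR, by DESeq2 or at an unadjusted p under 0.05. The list's median was 0.14, 0.17 and -0.05 in these 3 comparisons.

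Downstream of the family, 20 of 21 genes of mitochondrial release, caspases and their inhibitors were tested. After irradiation 4 were higher and 7 lower, with palbociclib against DMSO 4 and 6, and with ruxolitinib against DMSO 0 and 4. That is 55%, 50% and 20% of the list, where 72.4%, 48.3% and 4.52% of all tested genes were called. The inhibitor of apoptosis BIRC3 was at 265.3 ± 23.4 in proliferating, 597.9 ± 6.09 in DMSO, 215.1 ± 29.9 in palbociclib and 460.1 ± 14.4 in ruxolitinib libraries. It rose by 1.17 after irradiation and was lower with palbociclib (-1.48, adjusted p 1.06e-08). BIRC5, which encodes survivin and acts in mitosis, fell from 3327 ± 144 to 467.8 ± 33.7 after irradiation (-2.83) and was lower again with palbociclib (-2.67) and ruxolitinib (-0.46, adjusted p 0.025). The ruxolitinib call was lost without a variance trend (adjusted p 0.072) and without any 1 of A116, A118, A122, A123 or A124 (adjusted p 0.0506 to 0.129). BIRC2 was higher after irradiation (0.45) and CASP2 lower (-1.13), and the channel genes VDAC1 (0.38) and VDAC2 (0.31) were higher with palbociclib, VDAC2 not at the same total. Of the 20 genes 0 were higher with ruxolitinib by limma, edgeR or DESeq2, and 1 was at an unadjusted p under 0.05.

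Among factors that act on transcription or turnover of the members, 19 of 20 were tested. After irradiation 8 were higher and 7 lower, with palbociclib against DMSO 2 and 7, and with ruxolitinib against DMSO 0 and 2. The called shares were 78.9%, 47.4% and 10.5%, beside 72.4%, 48.3% and 4.52% of all tested genes. MDM2, which encodes a ubiquitin ligase, was at 1834 ± 9.63 in proliferating, 6256 ± 328 in DMSO, 2858 ± 62.8 in palbociclib and 6524 ± 84.0 in ruxolitinib libraries. It rose by 1.77 after irradiation and was lower with palbociclib (-1.13, adjusted p 6.75e-11). E2F1 was lower after irradiation (-1.84). The stress factor DDIT3 rose by 1.93 and was lower with palbociclib (-0.82), while ATF4 (0.54) and MYC (0.41) were higher with it, MYC not at the same total. With ruxolitinib TRIB3 (-0.60, adjusted p 4.58e-04) and STAT3 (-0.26, adjusted p 0.0139), a factor that Janus kinases activate, were lower. The STAT3 call was lost without any 1 of A117, A118, A122 or A124 (adjusted p 0.0539 to 0.0736). A higher factor with ruxolitinib was found 0 times by limma, 1 time by edgeR, 1 time by DESeq2 and 1 time at an unadjusted p under 0.05.

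**Figure D4:**
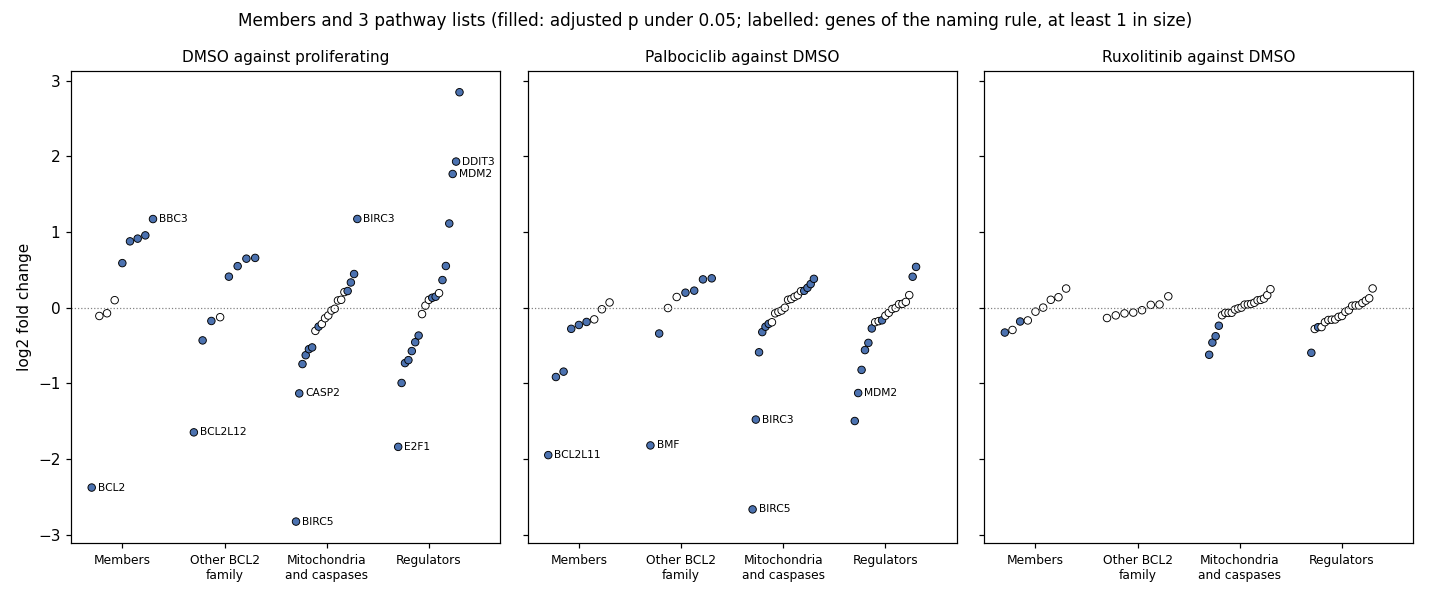
Log2 fold changes of the 9 tested members and of 3 pathway lists (8, 20 and 19 tested genes) in 3 comparisons, sorted within each list; filled points were called. With palbociclib BCL2L11 (-1.95), BMF (-1.82), BIRC3 (-1.48), BIRC5 (-2.67) and MDM2 (-1.13) stand lowest among the labelled genes, and fewer points are filled with ruxolitinib.

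The members with the widest span of group means were BCL2 (3.30), BCL2A1 (2.48) and BCL2L11 (2.09). As a description over 12 libraries, the genes whose centred log2 profile was nearest to BCL2 were FANCA, GINS3 and BARD1, with root mean square differences of 0.23, 0.26 and 0.26. Nearest to BCL2L11 were PMEL (0.21), MMP1 (0.21) and IL1RAPL1 (0.24). MMP1, for example, was at 3010 ± 56.0 in proliferating, 6556 ± 153 in DMSO, 1276 ± 157 in palbociclib and 5539 ± 108 in ruxolitinib libraries. Nearest to BCL2A1 were CRACD, TECTA and FAT2, at 0.56, 0.64 and 0.65, a looser likeness at its few reads.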

How the data were processed

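The 12 poly(A) RNA libraries of IMR90 cells comprised 3 in each of 4 groups. The only file the authors deposited holds normalized counts per gene and library, a signal without negative values. Per the submitters' processing notes, reads were handled with Trimmomatic 0.38.1, HISAT2 2.2.1, featureCounts 2.0.3 and DESeq2 2.11.40.8 on GRCh38 (hg38). All 160380 values above 0 were whole multiples of the value of 1 read in their library (100%, tolerance 0.01), so whole reads were recovered for the count tests. In library A116 1 read was worth 0.990. Columns are headed by group and library (A116 to A127), without replicate numbers.

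From the table, limma 3.58.1 in R 4.3.3 was fitted to log2(normalized count + 1) with 4 group means over 12 libraries and a mean trend, for genes with a mean of at least 10. Fold changes on this scale understate the change of low genes. The edgeR 4.0.16 quasi-likelihood test and DESeq2 1.42.0 were run on whole reads as alternatives, besides other pseudocounts, filters, scalings and thresholds and leaving out each library. The limma fit was checked on simulated data. Depth was 14106799 to 21762412 reads over listed genes, and intervals are 95% from limma.

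Named are all 10 members and, from each pathway list and comparison, the 2 largest called increases and decreases among genes averaging 100 or more in the higher group, plus 3 genes nearest in profile to each of the 3 members of widest range, the markers and label checks. Some results that this rule would name are not reported here. Overlapping genes are named for the members they touch. The members, lists and motifs were chosen with earlier results of these data known.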

Additional observations from a re-analysis of the deposited data

How the results depend on the processing

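No paired analysis was possible because the columns carry no replicate number. Of 312 counts of members under alternatives, 294 stayed within 1.5 times the main count. The share of all genes called under each alternative is not given, so a changed count is no result about the members. Of 2808 values of single genes, 2682 kept direction and call, 53 lost the call, 34 gained it and 39 changed sign; causes were not tested. At a log2 fold change of at least 0.5, lower members numbered 3 for palbociclib against DMSO, 0 for ruxolitinib against DMSO and 2 for palbociclib against proliferating cells. For ruxolitinib against DMSO, 1 member was lower at the same upper quartile, without a trend and at an adjusted p under 0.01, and 1 to 2 when libraries were left out in turn. For palbociclib against ruxolitinib, 6 were lower at the same total, and 5 with upper quartiles made equal, after quantile normalization, with edgeR and with DESeq2, and 0 to 1 were higher when libraries were left out. At the same upper quartile 2 were lower for palbociclib against proliferating cells.

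Each change of sign was in a member not called in that comparison. In the order same total, same upper quartile and quantile normalization, DMSO against proliferating cells gave 0.12, 0.049 and 0.051 for BAX and 0.155, 0.084 and 0.072 for BAK1, and ruxolitinib against proliferating cells gave 0.12, 0.092 and 0.14 for MCL1 (called at the first and last), 0.198, 0.17 and 0.16 for BAX and 0.131, 0.102 and 0.108 for BAK1. At the same total BAK1 was -0.157 for palbociclib against DMSO, -0.024 for ruxolitinib against DMSO and -0.134 for palbociclib against ruxolitinib, where BCL2L2 was -0.053 and PMAIP1 -0.101 (-0.057 after quantile normalization). For palbociclib against proliferating cells BAK1 was 0.123 at the same upper quartile, 0.175 after quantile normalization, 0.031 with edgeR, 0.034 with DESeq2 and 0.027 without A120 and A126, and with libraries left out -0.046 to 0.02 (0.001 without A120, 0.008 without A127). For ruxolitinib against proliferating cells BAX was 0.055 with edgeR, 0.053 with DESeq2, 0.084 without A126 or without A120 and A126, 0.015 without A123 and -0.071 to 0.084 over all libraries left out. With libraries left out, BCL2L2 was 0.017 (A116) and 0.018 (A118) for palbociclib against DMSO (range -0.098 to 0.018), and for ruxolitinib against DMSO BCL2 was 0.035 (A117; range -0.499 to 0.035) and BAK1 -0.045 (A118) and -0.064 (A122; range -0.064 to 0.036). Depth limits BCL2A1 most, at 8 reads in all with palbociclib.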
